A study of Mus musculus with 16 samples.

Results

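Liver is a target of many hormones, and 9 receptor or receptor-related genes were followed here across 16 liver libraries: Esr1 (oestrogen receptor alpha), Nr3c1 (glucocorticoid receptor), Thrb (thyroid hormone receptor beta), Prlr (prolactin receptor), Ghr (growth hormone receptor), Lepr (leptin receptor), Insr (insulin receptor), Gcgr (glucagon receptor) and Pgrmc1 (a membrane haem protein linked to progesterone binding). They were picked by gene symbol from the 15544 gene identifiers of the table, with earlier results of these data known. All 9 were listed once, and all 9 were among the 12704 genes that reached a value of 1 in at least 4 libraries and were tested.

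The livers came from female mice aged 27 weeks, kept on a mixed CD-1 and 129P2 background, in 4 groups of 4 samples, taken as 1 mouse each. Control mice were Esr1 fl/fl, so they carried the floxed allele without Cre. Mutant mice carried the same floxed allele with Nkx2-1-Cre (Esr1 Nkx2-1Cre), and animals of each genotype ate chow or had been on a high-fat diet (HFD) for 17 weeks. The comparison asks whether loss of the oestrogen receptor from Nkx2-1 lineage cells, which include hypothalamic neurons of the bone-building circuit, and the diet were accompanied by changes in liver RNA. Nkx2-1 is also a transcription factor of thyroid and lung, so that the Cre line is not specific to the brain. Hepatocytes are not of this lineage, and liver Esr1 therefore does not report the deletion.

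Steroid and thyroid hormone receptors are transcription factors whose activity on DNA is switched by a hormone that enters the cell. The prolactin, growth hormone and leptin receptors span the membrane without an enzyme of their own and signal through a JAK kinase and STAT factors, STAT5 above all for prolactin and growth hormone in the liver. The insulin receptor is itself a tyrosine kinase, and the glucagon receptor couples to a stimulatory G protein and cyclic AMP. In rodents hepatic Prlr is higher in females than in males and responds to oestrogen and growth hormone.

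The 16 values of a gene are levels on the TPM scale (a share of the library corrected for transcript length), adjusted by size factors, so that levels of different genes can be set beside each other. Column totals ranged from 905897 to 1119703, and the sequencing depth is unknown. Summed hepatocyte markers (7 of 7 in the table) ranged from 75178 to 112330 across the libraries, and Alb alone from 36044 to 79775. Summed markers of other cells were far lower, at 110.3 to 554 for Kupffer cells (5 of 5 genes), 120.1 to 238 for stellate cells (5 of 5), 91.2 to 169.7 for endothelium (5 of 5), 2.52 to 16.7 for lymphocytes (5 of 5) and 1.90 to 4.67 for bile duct cells (4 of 4). Red cell genes summed to 1623 to 6922 (5 of 5), and of 4 adipocyte markers the table held Plin1 alone, at 0 to 0.149. In bulk tissue fewer cells of a type and less RNA per cell cannot be told apart.

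2 HFD libraries stood apart from their groups. The numbers in the sample titles form 2 runs within each diet, and the labels do not say what they stand for. Among the HFD libraries the lower-numbered run held 3 controls and 1 mutant (mutant HFD replicate 1), and the higher-numbered run 3 mutants and 1 control (control HFD replicate 4), so that genotype and run are largely confounded on HFD. On chow the lower run held 2 controls and 1 mutant and the higher run 2 controls and 3 mutants. Mutant HFD replicate 1 lay within the range of the 3 controls of its run for all 9 receptors. Its Rps7, a ribosomal protein gene whose levels separated the genotypes in these libraries, was 206, within the range of 142.6 to 209.9 over all mutants and above the 15.5 to 34.3 of the controls. Results on HFD are therefore given with and without this library and with the run as a term in the fit. Leaving it out removes the only mutant of the lower run, so that genotype and run are then more strongly confounded. The fit with the run as a term compares genotypes within a run, and on HFD each run has a single library of 1 genotype.

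The receptors covered a wide range of levels. Pgrmc1 had the highest mean over the 16 libraries (759.6 ± 77.7 SD), followed by Ghr (382 ± 102), Prlr (242 ± 107) and Gcgr (194 ± 37.5). A second tier comprised Nr3c1 (28.5 ± 6.45), Insr (25.8 ± 5.39) and Thrb (19.8 ± 4.40), of which Nr3c1 and Insr differed by less than these SDs, and Esr1 (12.6 ± 5.96) and Lepr (8.42 ± 2.36) came last. The median over all tested genes was 10.3. Variation between libraries ran in another order, with coefficients of variation of 47.4% for Esr1 and 44.2% for Prlr at the top, 10.2% for Pgrmc1 at the bottom, and a median of 22.0% over all tested genes.

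**Figure D1:**
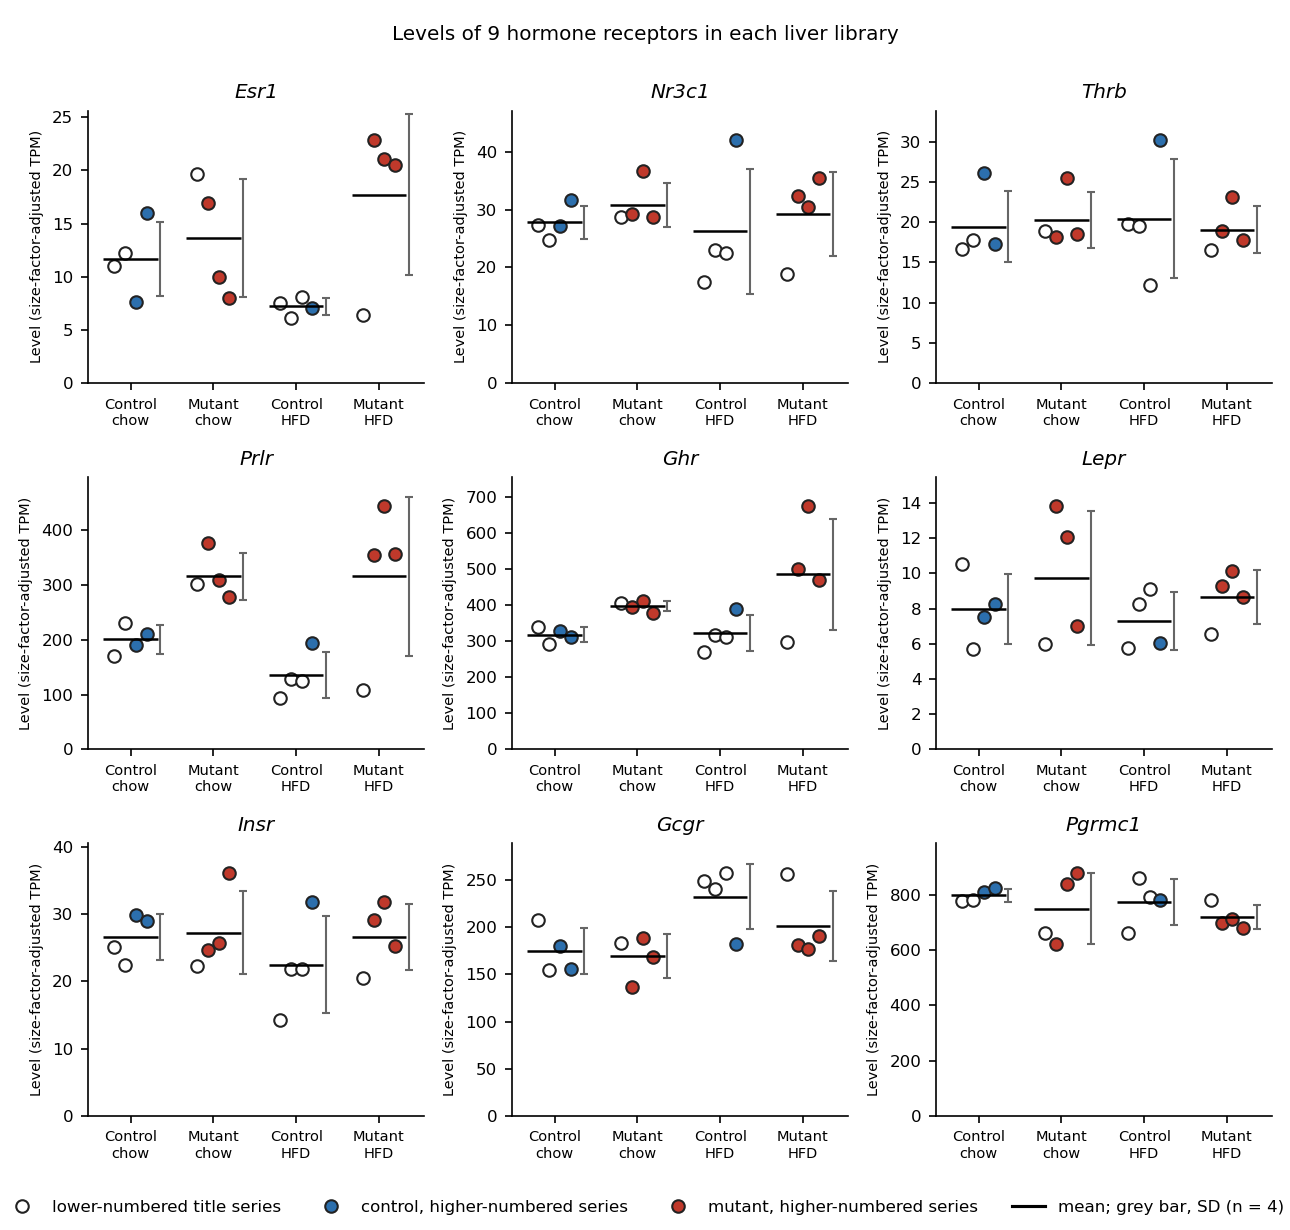
Level of each receptor gene (size-factor-adjusted TPM, linear axes from 0) in the 4 groups of 4 libraries, with open symbols for the lower-numbered title run, filled symbols for the higher-numbered run, a line at the mean and a grey bar for the SD. Prlr and Ghr of mutants lay above all controls on chow, and on HFD the open mutant symbol lay with the controls for Esr1, Prlr and Ghr.

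Between genotypes, none of the 9 receptors passed the threshold (adjusted p below 0.05, limma, adjusted over all genes) on chow, where 0.0236% of all genes did, on HFD, where 0.0157% did, or over both diets, where 0.063% did. At an unadjusted limma p below the same threshold there were 0, 3 and 3 receptors, beside 6.08%, 8.6% and 8.98% of all genes. Under library weights, which count libraries far from their group less, 6 receptors passed on HFD (Prlr, Ghr, Esr1, Nr3c1, Insr and Gcgr). Over both diets 3 passed (Prlr, Ghr and Esr1), and 3926 and 1020 genes in all then did. The weights were lowest for control HFD replicate 4 (0.228) and mutant HFD replicate 1 (0.329), each alone of its genotype in its run. The weighted HFD contrast is therefore close to one between the runs. The next lowest weight, 0.354, was that of mutant chow replicate 2, which shared its run with other mutants. With the run as a term Nr3c1, Insr and Gcgr turned sign on HFD. The largest genotype differences on HFD and over both diets were those of Prlr, Esr1 and Ghr, all higher in mutants, and on chow those of Prlr and Ghr. Prlr and Ghr were the 2 of 9 receptors whose chow groups did not overlap, with mutants higher, against 1.95% of all genes; no receptor was without overlap in the other direction, against 1.09%. On HFD no receptor separated the genotypes, against 1.39% of all genes without overlap and mutants higher and 1.31% with mutants lower. The median difference over the 9 receptors was 0.14 on the log2 scale on chow and 0.23 on HFD, beside 0.020 and 0.016 over all genes tested.

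Prlr had the widest range of the receptors, from 94.7 to 444, a ratio of 4.69. The gene lies at chr15:10177238-10349180 on the plus strand (mm10), with 12 annotated transcripts of which 7 code for protein. Exons of a further gene, Gm21973, overlap it on the same strand, and that gene has no row in the table, so that the Prlr level is uncertain to the extent that they share reads. Prlr in chow controls was 170.4, 231.6, 189.8 and 212, and in chow mutants 302, 377, 309.7 and 277. All 4 mutants were above all 4 controls, in the lower run (302 against 170.4 and 231.6) as well as in the higher run (277 to 377 against 189.8 and 212). The difference was 0.65 ± 0.34 (SE) on log2(level + 1), a ratio of 1.57, with an adjusted p of 0.838 by limma in the fit of all 16 libraries. The same value had an SE of 0.13 when only the 8 chow libraries were fitted, and the adjusted p was then 0.375.

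On HFD, Prlr was 94.7, 128.9, 124.2 and 195.1 in controls and 108.1, 355, 444 and 357 in mutants. 3 mutants were above every control, and mutant HFD replicate 1 lay inside the control range. The difference was 1.09 ± 0.34 (ratio 2.12, adjusted p = 0.527). Without that library it was 1.54 ± 0.20, with an adjusted p of 0.00149, and 141 genes in all passed instead of 2. All remaining HFD mutants were then of the higher run, so that this difference cannot be told apart from that between the runs. Within the lower run the single mutant (108.1) fell between the controls, and within the higher run the single control (195.1) was below the 3 mutants. With the run as a term the difference was 0.44 ± 0.21 (adjusted p = 1). Over both diets Prlr differed by 0.87 ± 0.24 (adjusted p = 0.27), by 0.54 ± 0.14 with the run as a term (adjusted p = 0.352) and by 1.096 ± 0.14 without mutant HFD replicate 1 (adjusted p = 0.000722).

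Ghr, the receptor through which growth hormone drives hepatic Igf1, had higher means in mutants on both diets, by less than Prlr. It lies on the minus strand of the same chromosome, at chr15:3317760-3583492. Its levels in chow controls were 340.7, 293.3, 328.5 and 312.1, and in chow mutants 406, 395, 413 and 379. The groups did not overlap within either run or across them, and the difference was 0.32 ± 0.18 (ratio 1.25, adjusted p = 0.859). HFD controls had 272, 318, 311 and 391 and HFD mutants 299, 502, 676 and 470.3. The mutant at 299 was again replicate 1, and the highest control was replicate 4. The HFD difference was 0.54 ± 0.18 (ratio 1.46, adjusted p = 0.527), 0.76 ± 0.14 without mutant HFD replicate 1 (adjusted p = 0.0171), and 0.24 ± 0.14 with the run as a term (adjusted p = 1). Over both diets it was 0.43 ± 0.13 (adjusted p = 0.349), and 0.54 ± 0.096 without that library (adjusted p = 0.0128). Summed hepatocyte markers on chow were 78732 to 96120 in controls and 93205 to 111328 in mutants, so that they overlapped but were higher in most mutants, and their part in the Prlr and Ghr differences was not tested.

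For Esr1 the genotypes overlapped on chow, and the larger difference was on HFD. The gene lies at chr10:4611593-5005614 on the plus strand. Chow controls had levels of 11.0, 12.2, 7.59 and 15.9 and chow mutants 19.6, 17.0, 9.98 and 8.02, which overlap over most of their range (difference 0.17 ± 0.34, adjusted p = 0.998). HFD controls were tightly grouped at 7.52, 6.14, 8.09 and 7.07, and the HFD mutants were 6.42, 22.9, 21.1 and 20.5. The control of the higher run (7.07) did not stand apart from the other controls, and mutant replicate 1 (6.42) was the only mutant among them. The HFD difference was 1.06 ± 0.34 (ratio 2.08, adjusted p = 0.527) and 1.46 ± 0.26 without mutant replicate 1 (adjusted p = 0.0144). With the run as a term it was 0.67 ± 0.35 (adjusted p = 1). Over both diets the difference was 0.61 ± 0.24 (adjusted p = 0.492), and 0.81 ± 0.18 without that library (adjusted p = 0.0474).

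The spread of Esr1 on chow went together with immune cell markers. The 3 chow libraries with the highest Esr1 (mutant replicates 1 and 2 and control replicate 4, at 15.9 to 19.6) were also the 3 with the highest summed Kupffer markers (367 to 554, against 110.3 to 268 in the other 5) and the highest summed lymphocyte markers (8.98 to 16.7, against 3.14 to 6.13). On HFD the 3 mutants with high Esr1 had Kupffer sums of 209 to 273, against 250.4 to 389 in the other 5 libraries. The part of these cells in the Esr1 values was not tested.

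**Figure D2:**
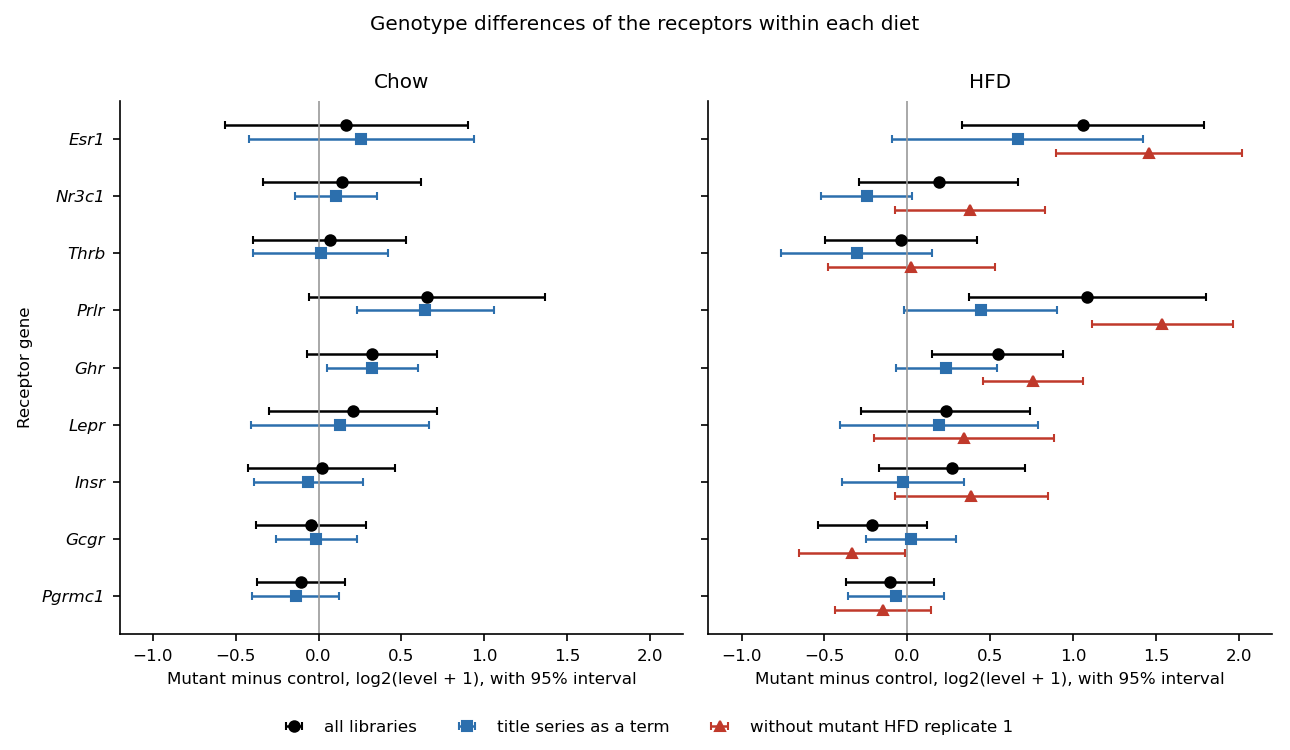
Mutant minus control on log2(level + 1) for each receptor on chow (left) and HFD (right), with 95% confidence intervals, from all libraries (black), with the title run as a term (blue) and, for HFD, without mutant HFD replicate 1 (red). The HFD differences of Esr1, Prlr and Ghr were largest without that library (1.46, 1.54 and 0.76) and smallest with the run as a term (0.67, 0.44 and 0.24).

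Because Prlr, Ghr and Esr1 had the largest genotype differences on HFD, the sequence before their transcription starts is shown. RefSeq (GRCm38.p6) gave 13 windows of 250 bases before a start for 7 of the receptors, and none was used for Nr3c1 and Insr. The palindromic STAT5-type motif TTCNNNGAA, read on both strands, was in 2 of the 13 windows, 1 of Prlr and 1 of Esr1, and in 7.02% of all 32851 windows of this length. Both held the same 9 bases, TTCTAGGAA, which on either strand were in 0.347% of all windows. These 9 bases were taken from the matches themselves before they were counted, so that this share is a description and not a test. The full oestrogen response element GGTCANNNTGACC was in none of the 13 and in 0.0639% of all windows. The windows that hold the motif and the Ghr window that lies outside annotated Ghr exons are given in the direction of transcription, with the motif in capitals and all other bases in lower case.
Prlr, chr15:10223656-10223905, plus strand: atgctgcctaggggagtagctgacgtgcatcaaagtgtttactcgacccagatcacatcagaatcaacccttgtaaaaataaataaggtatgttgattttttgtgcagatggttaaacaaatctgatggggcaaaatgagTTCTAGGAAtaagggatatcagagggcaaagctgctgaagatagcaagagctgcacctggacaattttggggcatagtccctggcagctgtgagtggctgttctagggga
Esr1, chr10:4709908-4710157, plus strand: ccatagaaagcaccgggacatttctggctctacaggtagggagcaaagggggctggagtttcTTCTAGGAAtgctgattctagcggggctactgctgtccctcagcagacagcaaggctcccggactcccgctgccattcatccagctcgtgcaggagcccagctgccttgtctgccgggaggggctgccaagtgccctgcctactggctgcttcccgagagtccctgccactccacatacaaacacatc
Ghr, chr15:3581843-3582092, minus strand: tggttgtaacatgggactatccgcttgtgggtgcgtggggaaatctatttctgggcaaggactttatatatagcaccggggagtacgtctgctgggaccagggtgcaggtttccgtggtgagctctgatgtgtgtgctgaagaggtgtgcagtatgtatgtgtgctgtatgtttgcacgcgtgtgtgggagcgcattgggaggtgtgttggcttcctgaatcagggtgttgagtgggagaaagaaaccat

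The motif began 110 bases before the start in Prlr and 188 bases before it in Esr1. Prlr and Esr1 each have further starts, whose windows lacked the motif, and values summed per gene do not tell which start was used. These matches describe the sequence and are not evidence of binding.

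Lepr, whose hepatic transcripts include those for short forms of the leptin receptor, was the lowest of the 9 and showed no genotype separation (chr4:101717404-101815352, plus strand). Its levels were 5.72 to 10.5 in chow controls, 6.01 to 13.8 in chow mutants, 5.74 to 9.12 in HFD controls and 6.58 to 10.2 in HFD mutants. The genotype differences were 0.21 ± 0.24 on chow (adjusted p = 0.994) and 0.23 ± 0.24 on HFD (adjusted p = 0.745), with 95% intervals of -0.30 to 0.72 and -0.28 to 0.74.

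Nr3c1, the receptor for corticosterone, did not separate the genotypes but followed the title runs on HFD. The gene is on chromosome 18, from base 39410545 to base 39519421 on the minus strand. On chow it was 27.4, 24.8, 27.2 and 31.7 in controls and 28.7, 29.2, 36.6 and 28.7 in mutants (difference 0.14 ± 0.22, adjusted p = 0.996). On HFD the lower run had 17.6, 23.1 and 22.4 in controls and 18.9 in the mutant. The higher run had 32.4, 30.4 and 35.6 in mutants and 42.1 in the control. Every library of the higher run was above every library of the lower run, whatever its genotype, and the control of the higher run was the highest of all 16. The genotype difference on HFD was 0.19 ± 0.22 (adjusted p = 0.782) and turned to -0.25 ± 0.13 with the run as a term (adjusted p = 1).

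Thrb, the main thyroid hormone receptor of liver, lies at chr14:17660261-18038090 on the plus strand and varied between single libraries rather than between groups. Chow controls had 16.6, 17.8, 26.0 and 17.3, chow mutants 18.9, 18.1, 25.5 and 18.5, HFD controls 19.7, 19.5, 12.2 and 30.2, and HFD mutants 16.5, 18.9, 23.1 and 17.7. 1 library each of the chow controls, chow mutants and HFD controls lay at 25.5 or above, and the groups overlapped throughout. Genotype differences were 0.067 ± 0.22 on chow and -0.039 ± 0.22 on HFD (adjusted p = 1 and 0.967).

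Insr (chr8:3122061-3279617, minus strand) was 22.5 to 29.9 in chow controls and 22.3 to 36.2 in chow mutants, which differed by 0.018 ± 0.21 (adjusted p = 1). On HFD controls had 14.3, 21.9, 21.9 and 31.9 and mutants 20.5, 29.2, 31.8 and 25.2. The highest control was again the one of the higher run and the lowest mutant the one of the lower run. The HFD difference of 0.27 ± 0.21 (adjusted p = 0.672) was -0.025 ± 0.17 with the run as a term.

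Gcgr, the receptor by which glucagon raises hepatic glucose output, was lower in the higher HFD run (chr11:120530699-120538986, plus strand). In the lower run it was 249, 240.7 and 258 in controls and 256 in the mutant, and in the higher run 181, 176 and 191 in mutants and 183 in the control. These runs did not overlap, and within them the genotypes differed by 0.021 ± 0.13 (adjusted p = 1), beside -0.21 ± 0.16 without the run in the fit (adjusted p = 0.658). Chow levels were 155 to 207 in controls and 136 to 189 in mutants (difference -0.045 ± 0.16, adjusted p = 1).

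Pgrmc1 was the steadiest of the 9 (chrX:36598206-36606079, plus strand). Its levels were 778 to 825 in chow controls, 620.5 to 879.6 in chow mutants, 663 to 861 in HFD controls and 680.1 to 779 in HFD mutants. The highest level was 1.42 times the lowest over all 16 libraries. Genotype differences of -0.11 ± 0.13 on chow and -0.10 ± 0.13 on HFD had 95% intervals of -0.37 to 0.16 on both diets (adjusted p = 0.994 and 0.786).

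Diet was examined within each genotype. Each title run lies within 1 diet, so the run could not be a term in these contrasts. A difference between the diets therefore cannot be told apart from one between runs. None of the 9 receptors passed in controls or in mutants, where 0% and 0% of all genes did, although 12.9% and 6.86% of all genes had an unadjusted limma p below the same threshold, among them 1 and 0 receptors. No receptor was without overlap between the diets, against 3.38% of all genes higher and 2.98% lower on HFD in controls, and 1.67% higher and 1.86% lower in mutants. Gcgr had the smallest p of the receptors in controls, at 174.7 ± 24.6 (SD, n = 4) on chow and 232.5 ± 34.0 (SD, n = 4) on HFD. This difference was 0.41 ± 0.16 (adjusted p = 0.3), and without control HFD replicate 4, whose Gcgr was 183, it was 0.52 ± 0.15 (adjusted p = 0.0504).

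Prlr and Esr1 were lower on HFD in controls, by values that did not pass. Prlr was 201 ± 26.5 (SD, n = 4) on chow and 135.7 ± 42.4 on HFD, a difference of -0.60 ± 0.34 (adjusted p = 0.462). The HFD controls of the lower run had Prlr of 94.7 to 128.9. Control HFD replicate 4, of the higher run, had 195.1, inside the chow control range of 170.4 to 231.6. Esr1 was 11.7 ± 3.45 on chow and 7.21 ± 0.825 on HFD, a difference of -0.59 ± 0.34 (adjusted p = 0.48). Its level in control HFD replicate 4 (7.07) lay among those of the other HFD controls. In mutants the diet differences of all 9 receptors were between -0.17 and 0.30, with adjusted p of 0.818 or more. Without mutant HFD replicate 1 the diet difference of Prlr in mutants turned from -0.17 to 0.28, that of Esr1 was 0.70 and that of Ghr 0.45, and none of these passed (adjusted p = 0.759, 0.617 and 0.492).

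Whether the genotype difference itself depended on diet was tested as an interaction. None of the 9 receptors passed, as was the case for 0% of all genes (4.21% of which had an unadjusted limma p below the threshold). The genotype difference was larger on HFD than on chow by 0.89 ± 0.49 for Esr1 (adjusted p = 0.895), by 0.43 ± 0.47 for Prlr and by 0.22 ± 0.26 for Ghr. With the title runs as a term it was smaller on HFD than on chow for Prlr (-0.20 ± 0.29) and Ghr (-0.088 ± 0.19). Genotype effects on these receptors are therefore not shown to differ between the diets.

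The contrast in which receptors passed was that between the title runs on HFD, with genotype in the fit. 5 of 9 receptors passed, against 25.2% of all genes: Nr3c1 by 0.87 ± 0.13 (adjusted p = 0.000611), Prlr by 1.29 ± 0.21 (adjusted p = 0.00125), Ghr by 0.62 ± 0.14 (adjusted p = 0.00724) and Insr by 0.59 ± 0.17 (adjusted p = 0.0239) rose in the higher-numbered run, and Gcgr fell by 0.47 ± 0.13 on the log2 scale (adjusted p = 0.0178). These were also the receptors whose runs did not overlap, 4 higher and 1 lower, against 19.6% and 16% of all genes. Thrb (0.53 ± 0.21, adjusted p = 0.0816) and Esr1 (0.79 ± 0.35, adjusted p = 0.118) did not pass. Summed markers of other cells also separated the HFD runs, at 4830.4 to 6922 in the lower run and 1695 to 4547 in the higher run for red cells, 144 to 159 and 194 to 235 for stellate cells, and 119 to 132 and 144 to 164 for endothelium, while hepatocyte and Kupffer sums overlapped. Their part in the receptor differences was not tested.

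That contrast leans on the libraries that were alone of their genotype in their run. Over all genes 3197 passed with every library, 1862 without mutant HFD replicate 1 and 715 without control HFD replicate 4. Without mutant HFD replicate 1, Prlr was at 0.76 ± 0.23 (adjusted p = 0.0442) and Nr3c1 at 0.98 ± 0.18 (adjusted p = 0.00506), and the other 3 no longer passed, while Esr1 was at -0.025 ± 0.40. Without control HFD replicate 4, Prlr was at 1.82 ± 0.23, Ghr at 0.86 ± 0.18, Nr3c1 at 0.76 ± 0.18 and Esr1 at 1.60 ± 0.40 (adjusted p = 0.00406, 0.0226, 0.0325 and 0.0376), and Insr and Gcgr no longer passed. Nr3c1 and Prlr were thus the receptors that passed in all 3 fits. With either library left out, the run difference on HFD sets 1 library against 3 of the same genotype in the other run. Those fits are therefore not replicated comparisons of the runs. Between the runs on chow none of the 9 receptors passed, as with 0% of all genes (11.6% at an unadjusted limma p below the threshold), and their differences lay between -0.36 and 0.32.

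**Figure D3:**
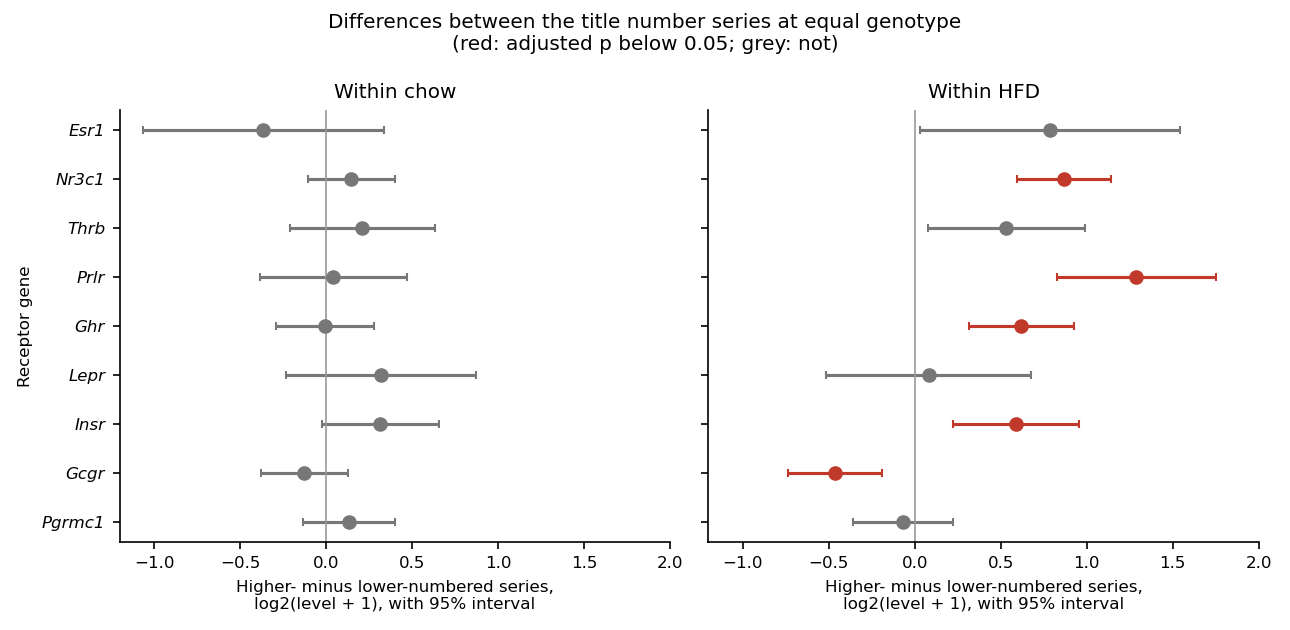
Higher-numbered minus lower-numbered title run on log2(level + 1) for each receptor within chow (left) and within HFD (right), at equal genotype, with 95% confidence intervals; red marks an adjusted p below 0.05. On HFD, Nr3c1, Prlr, Ghr and Insr rose by 0.87, 1.29, 0.62 and 0.59 and Gcgr was at -0.47, while no receptor passed on chow.

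Across the 16 libraries the receptors fell into a loose group and its counterpart. Pearson correlations of log2 levels were 0.83 between Prlr and Ghr, 0.80 between Esr1 and Prlr, 0.74 between Nr3c1 and Insr, and 0.73 between Prlr and Nr3c1. Gcgr was opposite to Prlr (-0.77), Nr3c1 (-0.61) and Insr (-0.59). Pgrmc1 was opposite to Esr1 (-0.60) and near 0 with Nr3c1 (0.028). The libraries share genotype, diet and run, so these values describe a joint pattern and carry no test.

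**Figure D4:**
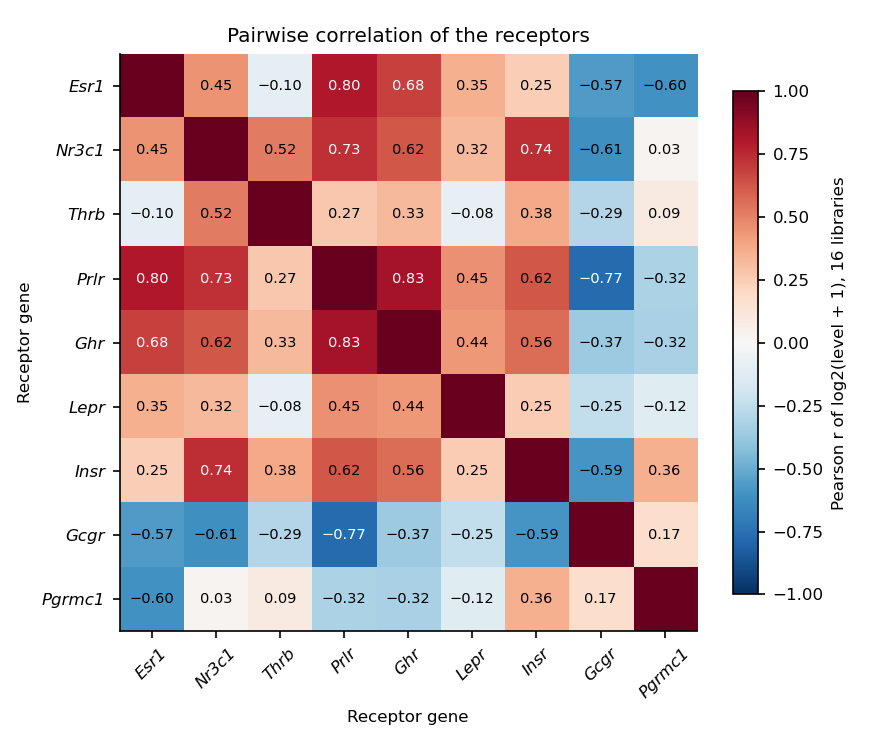
Pearson correlation of log2(level + 1) between each pair of receptors over the 16 libraries (red positive, blue negative). The strongest pairs were Prlr with Ghr (0.83) and Esr1 with Prlr (0.80), and Gcgr was negative with Prlr (-0.77).

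Of the 12704 tested genes, those most like each receptor over the 16 libraries were found by the same measure. For Prlr they were Cyp3a16 (r = 0.97), Lifr (0.96) and Cyp3a41a (0.95), that is, a pair of cytochrome P450 genes and the receptor of leukaemia inhibitory factor. Gcgr was closest to Pgghg (0.98), Scp2 (0.96), a sterol carrier protein, and Echdc2 (0.96). For Esr1 they were Tmem104 (0.92), Cxcl12 (0.90), a chemokine, and Urad (0.88), for Ghr Csnk1g3 (0.89), Slc6a9 (0.89) and Tmem64 (0.88), and for Nr3c1 Nfic (0.93), Pbrm1 (0.91) and Spag9 (0.91). Insr was closest to Gprin3 (0.93), Plscr2 (0.92) and Samd8 (0.92) and Pgrmc1 to Cd1d1 (0.85), Rgs16 (0.84) and Mettl7a1 (0.84). Thrb, with Dkc1 (0.80), Zcchc4 (0.76) and Mtrr (0.76), and Lepr, with Maml1 (0.78), Rbm15 (0.76) and Susd1 (0.76), had the weakest neighbours.

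Downstream of Prlr, Ghr and Lepr, none of 16 JAK and STAT pathway genes passed for genotype or diet. On chow 14 of the 16 were higher in mutants, with a median of 0.15 beside 0.020 over all genes, and Stat3 had the smallest p (0.49 ± 0.19, adjusted p = 0.804). On HFD 11 of the 16 were higher, with a median of 0.085 beside 0.016, and Socs3, which had the smallest p there, was at -1.19 ± 0.48 (adjusted p = 0.56). The genes were measured in the same libraries, and the list was chosen with earlier results of these data known. These counts therefore carry no test. Between the HFD runs 5 of 16 passed, beside 25.2% of all genes. Socs2 (1.68 ± 0.49, adjusted p = 0.0253), a feedback inhibitor of growth hormone signalling, Jak2 (0.55 ± 0.14, adjusted p = 0.0125), the kinase bound to these receptors, Jak1 (0.47 ± 0.14, adjusted p = 0.0244) and Igf1 (0.46 ± 0.14, adjusted p = 0.0274) were higher in the higher-numbered run, and the adaptor Sh2b1 was at -0.37 ± 0.12 (adjusted p = 0.0396). Of the whole list, 9 genes were higher and 7 lower in that run, and a link to the receptor levels was not tested. Without mutant HFD replicate 1 or without control HFD replicate 4, 1 of the 16 passed, beside 1862 and 715 of all genes.

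Around Esr1, the list of oestrogen metabolism and receptor cofactors (10 of 12 tested) held the sole listed gene that passed for genotype. Sult1e1, the sulfotransferase that inactivates oestrogens, was 0.552 ± 0.344 (SD, n = 4) in chow controls and 9.83 ± 6.71 in chow mutants (2.62 ± 0.36 on the log2 scale, adjusted p = 0.0163), and 0.352 ± 0.355 in HFD controls and 2.46 ± 0.938 in HFD mutants (1.35 ± 0.36, adjusted p = 0.524). Over both diets it rose by 1.98 ± 0.26 (adjusted p = 0.00345). Both control means lay below 1, the value that a gene had to reach in 4 libraries to be tested. Sult1e1 could therefore not have entered the test on the controls alone. On chow it no longer passed without control replicate 1, 2 or 4 or without mutant replicate 1. Between the HFD runs, where 25.2% of all genes passed, the coactivators Ncoa1 (0.67 ± 0.15) and Ncoa2 (0.67 ± 0.12) rose (adjusted p = 0.00699 and 0.00166). Agt, the angiotensinogen gene, was at -0.57 ± 0.13 (adjusted p = 0.00689). Without control HFD replicate 4 none of the list passed, and over all genes the number fell from 3197 to 715.

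The lists around the other receptors held no gene that passed for genotype or diet, and their calls between the HFD runs stand beside the 25.2% of all genes that passed there. Of 11 glucocorticoid genes, Fkbp5, which the receptor induces and which inhibits the receptor, had the smallest p over both diets (0.62 ± 0.23, adjusted p = 0.439). Between the HFD runs only the cochaperone Fkbp4 passed (-0.46 ± 0.15, adjusted p = 0.0434). Of 14 insulin signalling genes, Pik3r1 (0.88 ± 0.16), Pdpk1 (0.52 ± 0.14) and Irs1 (0.46 ± 0.15) rose in the higher run (adjusted p = 0.00171, 0.0153 and 0.0427). Of 11 glucagon pathway genes, Gnas (0.28 ± 0.082) and Ppargc1a (0.58 ± 0.20) rose and Prkaca (-0.26 ± 0.083) and Pck1 (-1.10 ± 0.37), which encodes a gluconeogenic enzyme, fell (adjusted p = 0.0269, 0.0479, 0.0358 and 0.0449).

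Of 10 thyroid hormone genes tested, the deiodinase Dio1 (1.47 ± 0.45), the corepressor Ncor1 (0.67 ± 0.11) and the transporter Slc16a10 (0.61 ± 0.19) rose in the higher HFD run and Rxrb, a partner of the receptor, was at -0.91 ± 0.16 (adjusted p = 0.0312, 0.00113, 0.0338 and 0.00189). Dio1 had a genotype difference of 0.92 ± 0.50 on chow and 1.01 ± 0.50 on HFD that did not pass (adjusted p = 0.848 and 0.579). Without control HFD replicate 4 the calls between the runs fell to 1 insulin, 0 glucagon, 0 glucocorticoid and 1 thyroid gene. Without mutant HFD replicate 1 they were 3, 1, 1 and 2 in the same order. Over all genes the calls fell as well, from 3197 to 715 without the former library and to 1862 without the latter. None of 4 tested sterol and membrane progesterone genes grouped with Pgrmc1 passed in any comparison.

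A list of 31 other hormone receptors gave a wider view. 23 were in the table and 20 were tested, and none passed for genotype or diet. Their median genotype difference was -0.018 on chow and 0.099 on HFD, beside 0.14 and 0.23 for the 9 receptors described above. Both sets were chosen with earlier results of these data known, so that this comparison is no test. Between the HFD runs 4 of 20 passed, beside 25.2% of all genes: Paqr9 (1.04 ± 0.23), a membrane progestin receptor, Klb (0.70 ± 0.14), the co-receptor of FGF21, and Agtr1a (0.47 ± 0.16), an angiotensin receptor, rose, and Thra, the other thyroid hormone receptor, was at -0.91 ± 0.12, opposite in sign to Thrb (adjusted p = 0.00541, 0.00342, 0.0451 and 0.000404). Without mutant HFD replicate 1, 1 of the 20 passed, and over all genes 1862 instead of 3197 did.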

How the data were processed

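Liver RNA of 16 samples, taken as 1 mouse each, was measured by bulk RNA sequencing. The authors made libraries with a NEBNext Ultra II kit, sequenced them on a NovaSeq instrument and quantified transcripts with kallisto and sleuth against mm10 (versions and annotation release are not given in the sources used here). The deposited values are a signal per gene, inferred to be TPM adjusted by size factors because column totals differ. TPM keeps no depth, so no counting interval was computed, and similar transcripts share reads by estimation. Groups follow the labels for genotype and treatment, and p-values measure the spread between samples.

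Limma 3.58.1 (R 4.3.3, trend moderation) was run on log2(value + 1) in 1 fit of 4 group means over all 16 libraries, after keeping genes that reached 1 in 4 or more of them. This scale understates changes of low genes. Adjusted p-values follow Benjamini and Hochberg over 12704 genes, with a threshold of 0.05, in 8 contrasts. Title runs were contrasted in a fit with group and run, and the run was also a term in the genotype contrasts. The fit was also run on simulated data with independent noise per gene and no run effect. That simulation does not cover the confounding of genotype and run on HFD. A count test foreseen for counts did not apply. Alternatives were a pseudocount of 0.1, no filter or a filter at 5, median-of-ratios scaling, library weights, fitting the compared groups only, the run as a term, and leaving out each library.

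The 9 receptors and the gene lists were chosen with earlier results of these data known. Named genes were the 9 receptors, listed genes past the threshold, otherwise at most 2 per list and contrast with the smallest p, and the 3 genes most correlated with each receptor. Rps7, the markers and the immune marker pattern beside Esr1 were taken up after their values were seen. Gene positions are from GENCODE M21 on GRCm38 (15531 of 15544 identifiers matched) and windows before starts from RefSeq GRCm38.p6. Proteins were not used here.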

Additional observations from a re-analysis of the deposited data

Results flagged for a closer look

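In 36 sets of 4 libraries (9 receptors in 4 groups), 4 had 1 library whose gap to its nearest neighbour exceeded Dixon's 95% critical value for 4 samples as a share of the range of the group; chance gives about 1 in 20. Esr1 was 6.42 in mutant HFD replicate 1, beside 20.5 to 22.9 in the other 3, and this is the library of the lower-numbered title run. Nr3c1 was 36.6 in mutant chow replicate 3, beside 28.7 to 29.2. Thrb was 26.0 in control chow replicate 3, beside 16.6 to 17.8, and 25.5 in mutant chow replicate 3, beside 18.1 to 18.9. The Nr3c1 and Thrb values of mutant chow replicate 3 thus come from 1 library. The causes were not tested.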

How the results depend on the processing

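No paired analysis was possible because the labels give no replicate numbers. All 72 receptor differences (9 receptors in 8 contrasts) kept their sign and their side of the threshold with a pseudocount of 0.1, with no filter and with a filter at 5. So did those of the 6 contrasts that could be fitted to the compared groups alone. Over all genes, the filter at 5 left 1 gene past the threshold on chow and 4 over both diets, no filter gave 2 between the chow runs, and the compared groups alone gave 6 between genotypes on chow, 1 between genotypes on HFD, 4 between diets in controls and 1 between diets in mutants.

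Library weights, which were lowest for control HFD replicate 4 (0.228) and mutant HFD replicate 1 (0.329), changed most. Both libraries were alone of their genotype in their run, so that weighting brings genotype and run on HFD closer together. Mutant chow replicate 2 had the next lowest weight (0.354). Past the threshold were then 6 receptors of 3926 genes for genotype on HFD, 3 of 1020 over both diets, 2 of 2264 for diet in controls, 9 genes for diet in mutants and 6 for genotype on chow. Signs that turned with weights were those of Esr1 (-0.015) and Gcgr (0.0091) on chow, Thrb (0.19) on HFD, diet in controls for Ghr (-0.043), Lepr (0.011) and Thrb (-0.18), diet in mutants for Prlr (0.26), Nr3c1 (0.013) and Lepr (0.054), the interaction for Thrb (0.12) and Pgrmc1 (-0.17), and the chow runs for Prlr (-0.085) and Ghr (0.045). Median-of-ratios scaling turned Insr on chow (-0.017) and Thrb over both diets (-0.018).

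With the title run as a term 1 gene passed on chow, and signs turned for Insr on chow (-0.061), Nr3c1 (-0.25), Insr (-0.025) and Gcgr (0.021) on HFD, Nr3c1 (-0.070), Insr (-0.043), Gcgr (0.0038) and Thrb (-0.15) over both diets, and the interaction of Prlr (-0.20), Ghr (-0.088), Nr3c1 (-0.35) and Gcgr (0.034). The cause of these changes was not tested.

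Leaving out 1 library at a time gave 0 to 3 receptors of 2 to 141 genes for genotype on HFD and 0 to 3 of 6 to 120 over both diets, with 3 receptors, 141 and 120 genes without mutant HFD replicate 1. It gave 1 to 14 genes for genotype on chow (14 without mutant chow replicate 3), 0 to 928 for diet in controls (928 without control HFD replicate 4), 0 to 2 for diet in mutants, 2 to 5 receptors of 715 to 3011 genes between the HFD runs (715 without control HFD replicate 4) and 0 to 2 genes between the chow runs. Signs turned within the ranges of Esr1 (-0.024 to 0.37), Gcgr (-0.10 to 0.055), Insr (-0.12 to 0.10) and Thrb (-0.043 to 0.21) on chow, Thrb on HFD (-0.25 to 0.16) and over both diets (-0.091 to 0.12), diet in controls for Ghr (-0.087 to 0.087), Lepr (-0.25 to 0.012), Nr3c1 (-0.39 to 0.014), Pgrmc1 (-0.10 to 0.022) and Thrb (-0.18 to 0.23), and diet in mutants for Insr (-0.11 to 0.12), Lepr (-0.28 to 0.085), Nr3c1 (-0.20 to 0.092), Pgrmc1 (-0.13 to 0.034), Prlr (-0.39 to 0.28) and Thrb (-0.17 to 0.028). So did the interaction for Lepr (-0.16 to 0.20), Nr3c1 (-0.11 to 0.29), Pgrmc1 (-0.084 to 0.084) and Thrb (-0.32 to 0.098), the HFD runs for Esr1 (-0.025 to 1.60), Lepr (-0.29 to 0.45) and Pgrmc1 (-0.16 to 0.027), and the chow runs for Ghr (-0.062 to 0.039) and Prlr (-0.056 to 0.15). Genotype differences of Prlr, Ghr and Esr1 on HFD stayed positive under every alternative.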

Other observations

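Among listed genes not described above, none passed limma's test for diet in controls, and several of the smallest p were of genes lower on HFD. Cyp51, an enzyme of cholesterol synthesis, was at -2.15 ± 0.56 (SE, log2 scale, adjusted p = 0.199), Avpr1a, the hepatic vasopressin receptor, at -0.87 ± 0.24 (adjusted p = 0.202) and Hsd17b2, which oxidises oestradiol to oestrone, at -0.48 ± 0.14 (adjusted p = 0.215). Grb10, an adaptor that inhibits the insulin receptor, was higher, at 0.64 ± 0.18 (adjusted p = 0.212). For genotype on HFD, Irs1 was at 0.54 ± 0.17 (adjusted p = 0.527) and Nr3c2, the mineralocorticoid receptor, at 0.78 ± 0.31 (adjusted p = 0.56). For genotype on chow, Foxa1, a pioneer factor for oestrogen receptor binding in other tissues, was at -0.56 ± 0.15 (adjusted p = 0.548).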
